A study of Homo sapiens with 4 samples.

Results

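The intestinal lineage transcription factors described here are ELF3, CDX1, CDX2, HNF4A, HNF4G, KLF4, KLF5, GATA6, SOX9 and ATOH1, chosen by symbol from a count table of 20263 genes. All 10 had a row, and 9 had enough counts to be tested. The cells were HCT116, an established human colon cancer line, given the compound N_12 for 24 h in 1 group and the solvent DMSO in the other, both in medium with 10% serum. The series title calls N_12 a derivative of the kinase inhibitor nilotinib and names migration and the epithelial to mesenchymal transition. The treatment tag of the N_12 samples reads HJJ_3_5, and no dose is given. Each group held 2 mRNA libraries of 1 cell line, with 41717938 and 39865327 counts for N_12 and 31120459 and 29769568 counts for DMSO, so the N_12 libraries were the deeper ones. The labels do not say whether replicates were separate cultures, so the p-values rest on a replicate spread that may be purely technical.

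Cells of the intestinal lining arise from dividing crypt cells and become absorptive or secretory as they leave the crypt. CDX2 and CDX1 are homeobox factors that set intestinal identity, HNF4A and HNF4G are nuclear receptors that switch on genes of absorptive cells, and KLF4 and KLF5 mark the post-mitotic and the dividing compartment. GATA6 is a zinc finger factor of gut epithelium, SOX9 marks crypt progenitors, and ATOH1 commits cells to the secretory fate when Notch signalling is low. ELF3 is an ETS factor of epithelial cells that is needed for normal villus differentiation in mice and is induced by inflammatory signals.

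After N_12, ELF3 was the 1 lineage factor of the 9 tested whose level changed beyond the test's threshold, and its mRNA fell 2.21-fold. The crypt factor SOX9 and the factors KLF4, KLF5 and GATA6 had intervals that include no difference. CDX2 and HNF4A averaged higher, and HNF4G lower, in N_12 without passing. CDX1 had 0 counts in every library. Of all 14105 genes tested with edgeR's quasi-likelihood test, 317 (2.25%) passed a Benjamini-Hochberg adjusted p of 0.05, 0.822% higher and 1.43% lower in N_12. A single call among 9 is a small number to set against that background. The factors were also chosen with earlier results of these data known.

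The promoters below are shown because they belong to the called factor, ELF3, to CDX2, the factor with the next smallest p, and to 2 called regulators described further on, SOX4 and HES1. Each is the 250 bases before the gene's start in RefSeq on GRCh38.p14, printed 5′ to 3′ along the gene's strand, with the ETS core GGAA in capitals on either strand. Windows were matched for 7 of the 10 factors. ELF3 lies at chr1:202010337-202010586 on the plus strand, CDX2 at chr13:27969316-27969565 on the minus strand, SOX4 at chr6:21593501-21593750 on the plus strand and HES1 at chr3:194135898-194136147 on the plus strand.
ELF3: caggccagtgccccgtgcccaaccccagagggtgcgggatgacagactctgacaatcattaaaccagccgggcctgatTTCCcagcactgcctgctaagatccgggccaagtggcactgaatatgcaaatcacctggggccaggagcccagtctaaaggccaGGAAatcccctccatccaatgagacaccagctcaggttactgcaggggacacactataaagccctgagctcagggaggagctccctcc
CDX2: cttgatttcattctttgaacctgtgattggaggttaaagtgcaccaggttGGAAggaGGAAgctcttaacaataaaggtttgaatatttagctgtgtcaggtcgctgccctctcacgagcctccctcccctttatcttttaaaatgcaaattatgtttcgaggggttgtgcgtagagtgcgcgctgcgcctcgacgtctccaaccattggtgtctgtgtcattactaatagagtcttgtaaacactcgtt
SOX4: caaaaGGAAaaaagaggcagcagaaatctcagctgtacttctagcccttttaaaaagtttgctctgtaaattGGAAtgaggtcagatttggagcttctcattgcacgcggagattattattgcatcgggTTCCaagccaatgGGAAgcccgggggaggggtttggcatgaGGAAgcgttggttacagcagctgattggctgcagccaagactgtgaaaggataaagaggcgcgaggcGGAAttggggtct
HES1: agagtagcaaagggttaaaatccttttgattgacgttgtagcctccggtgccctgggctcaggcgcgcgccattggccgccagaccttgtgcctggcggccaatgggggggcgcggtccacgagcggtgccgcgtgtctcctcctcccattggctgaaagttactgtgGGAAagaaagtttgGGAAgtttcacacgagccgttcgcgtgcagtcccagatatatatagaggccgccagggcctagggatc

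A search of both strands used the ETS core GGAA, the TATA box as TATAAA, the CCAAT box, the GC box as GGGCGG, the core ACGTG bound by hypoxia-inducible factors, the CDX core TTTAT, the GATA site AGATAA and the kappaB consensus. The ELF3 window held 2 GGAA cores, 172 and 88 bases before the start, and the nearer one lies within a kappaB match on the other strand that also begins 88 bases before the start. It further held the TATA box 34 bases and the CCAAT box 73 bases before the start, and a CDX core on the other strand within the letters of the TATA match. Among 35116 promoter windows of this length the ETS core occurred in 92.7%, the CCAAT box in 32%, the CDX core in 32.7%, the TATA box in 10.7%, the GATA site in 9.17% and the kappaB consensus in 5.21%. CDX2 held 2 GGAA cores, SOX4 held 6 and HES1 held 2, and none of these 3 windows held the TATA box or the kappaB consensus. The CCAAT box was found in each of the 3. The hypoxia core, found in 18.5% of all windows, and the GC box, found in 42.6%, were in none of the 4 windows. These are letter matches and not binding sites.

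ELF3 (ENSG00000163435) had 3658 and 4106 counts in the N_12 libraries, against 6812 and 5612 counts in the DMSO libraries, although the N_12 libraries were sequenced more deeply. In CPM, the usual depth-scaled unit, here on TMM-scaled totals, it stood at 86.8 and 101 CPM in N_12 and at 223 and 191 CPM in DMSO. Both N_12 libraries thus lay below both DMSO libraries, by more than either pair differed within itself. The means were 93.8 ± 9.82 CPM in N_12 and 207 ± 23.0 CPM in DMSO (SD, n = 2 each), a log2 fold change of -1.14 (SE 0.15, 95% interval -1.49 to -0.80, edgeR adjusted p = 0.0155). By its unadjusted p ELF3 ranked 62 among the 14105 genes.

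The ELF3 call held on all 4 libraries with limma-voom (adjusted p = 0.0380), where it was again the 1 factor called beside 0.929% of all genes, with DESeq2 (adjusted p = 1.21e-08), and without either DMSO library. Without N_12 replicate 1 the log2 fold change was -1.06 (edgeR adjusted p = 0.131) and without N_12 replicate 2 it was -1.26 (adjusted p = 0.128). In those 2 fits edgeR called 0 of all genes, while 2855 and 2763 genes had an unadjusted p under 0.05. Of the ELF3 exon bases, 9.23% are shared with an antisense gene, ELF3-AS1, and 9.23% with a same-strand gene. These shares may cover the same bases. Neither gene has a row in the table, and the strand setting of the counting is not given in the sources used here.

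**Figure D1:**
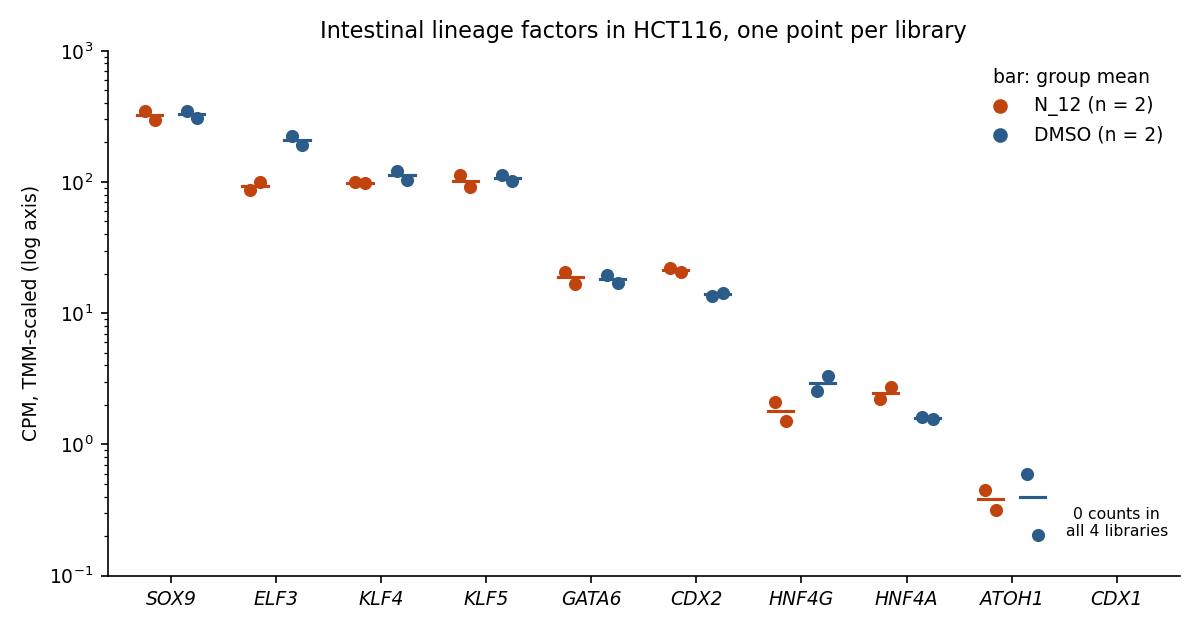
CPM of the 10 factors on a log axis, 1 point per library and a bar at each group mean, with N_12 left of DMSO for each gene. ELF3 stands at 86.8 and 101 CPM in N_12 and 223 and 191 CPM in DMSO, the SOX9, KLF5 and GATA6 groups overlap, and CDX1 has no counts.

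CDX2 (ENSG00000165556), the homeobox factor, had 22.1 and 20.7 CPM in N_12 and 13.6 and 14.3 CPM in DMSO. Both N_12 libraries lay above both DMSO libraries. The log2 fold change was 0.62 (SE 0.16, 95% interval 0.24 to 0.99), and edgeR did not call it (adjusted p = 0.0926, unadjusted p = 0.00554). DESeq2 did (adjusted p = 0.0263), in a fit that called 9.83% of the genes given an adjusted p. Leaving out 1 library at a time gave log2 fold changes from 0.55 to 0.66, so CDX2 stayed higher in N_12 in each of these fits without passing. CDX1 (ENSG00000113722), its paralog, had 0 counts in the N_12 libraries and 0 counts in the DMSO libraries, and no fold change can be given.

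The 2 HNF4 paralogs sat at low levels and on opposite sides of 0. HNF4A (ENSG00000101076) had 93 and 111 counts in N_12 and 49 and 46 counts in DMSO, or 2.47 ± 0.364 CPM and 1.59 ± 0.0300 CPM (SD, n = 2 each). Its groups did not overlap, with N_12 higher. HNF4G (ENSG00000164749) had 89 and 61 counts in N_12 and 78 and 98 counts in DMSO, or 1.80 ± 0.436 CPM and 2.95 ± 0.548 CPM. Here N_12 lay lower in both libraries. The log2 fold changes were 0.64 for HNF4A (95% interval -0.0045 to 1.27, edgeR adjusted p = 0.232) and -0.70 for HNF4G (-1.39 to -0.02, adjusted p = 0.217), and neither passed. The ratio of HNF4A to HNF4G per exon length was 0.687 and 1.20 in N_12 and 0.413 and 0.309 in DMSO. Another length would scale all 4 values alike. By coding transcript length HNF4A lay above HNF4G in both N_12 libraries and below it in both DMSO libraries. The HNF4A to HNF4G ratio was chosen after the values were seen and is given as a description, with no test.

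KLF4 (ENSG00000136826), the zinc finger factor of post-mitotic epithelium, had 100.3 and 97.7 CPM in N_12 and 121 and 104 CPM in DMSO. The N_12 libraries lay just below, by less than the DMSO libraries differed from each other. Its log2 fold change was -0.18 (95% interval -0.50 to 0.14, edgeR adjusted p = 0.476). KLF5 (ENSG00000102554), its counterpart in dividing crypt cells, had 113 and 91.3 CPM in N_12 and 113 and 102 CPM in DMSO, and its log2 fold change was -0.08 (-0.43 to 0.28). The KLF5 groups overlapped, and its edgeR adjusted p was 0.815.

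GATA6 (ENSG00000141448) had 20.7 and 16.8 CPM in N_12 and 19.6 and 17.0 CPM in DMSO, and its log2 fold change was 0.04 (95% interval -0.39 to 0.46). Antisense genes share 14.2% of its exon bases. SOX9 (ENSG00000125398) was the most abundant of the 10, with 348 and 294 CPM in N_12 and 349 and 305 CPM in DMSO, and differed by -0.02 (-0.36 to 0.31). In both genes the N_12 and DMSO libraries overlapped. The edgeR adjusted p was 0.928 for GATA6 and 0.940 for SOX9, which does not show that their levels are the same.

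ATOH1 (ENSG00000172238), the secretory switch, had 19 and 13 counts in N_12 and 18 and 6 counts in DMSO. At this depth the log2 fold change of -0.05 had a 95% interval of -1.50 to 1.40, so a change as large as that of ELF3 was not detectable in either direction. Without DMSO replicate 1 its value was 0.91, and without DMSO replicate 2 it was -0.61.

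**Figure D2:**
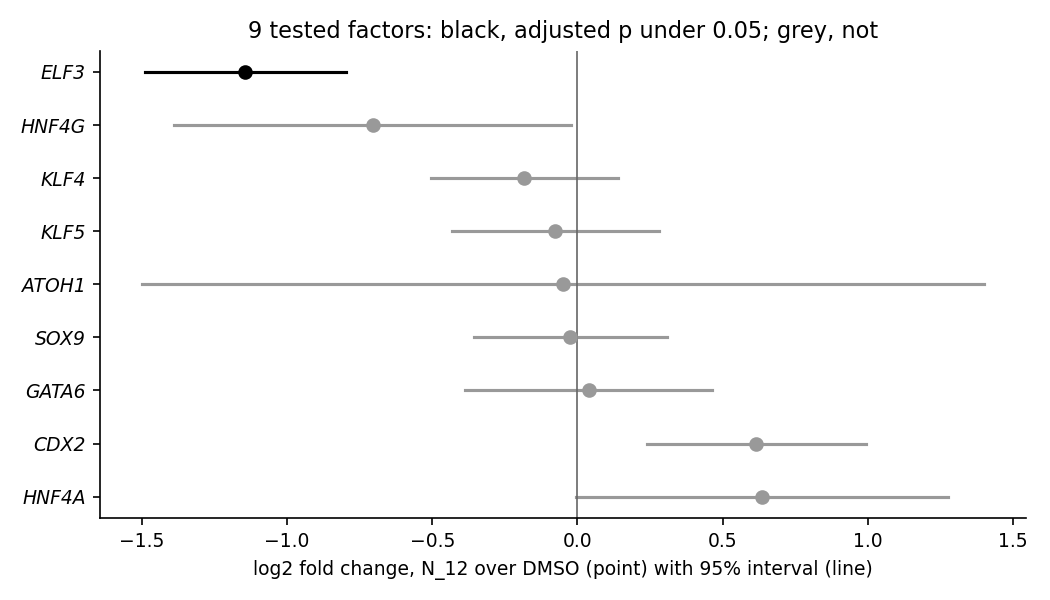
Log2 fold change of N_12 over DMSO for the 9 tested factors (points) with 95% intervals (lines) from edgeR. ELF3, drawn in black, is the called factor at -1.14, CDX2 lies at 0.62 with an interval above 0 and an adjusted p of 0.0926, and the ATOH1 interval runs from -1.50 to 1.40.

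Among the 9 tested factors 3 had an unadjusted p under 0.05 (ELF3, CDX2 and HNF4G), against 21.8% of all tested genes. For 5 of the 9 the groups did not overlap, 3 with N_12 below and 2 with N_12 above, against 54.7% of all tested genes (26.8% below and 27.9% above). Their median log2 fold change was -0.05, beside 0.01 over all tested genes. Apart from the ELF3 call, these shares and the median lay close to those of all genes.

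In RPKM, which is CPM per kilobase of exon, SOX9 was the highest of the detected factors and ATOH1 the lowest in both groups. SOX9 had 81.7 RPKM in N_12 and 83.1 RPKM in DMSO, at percentile 97.3 of the tested genes in N_12 and 97.1 in DMSO. In DMSO the next 3 were KLF4 at 30.7, ELF3 at 28.8 and KLF5 at 27.6 RPKM, whose libraries overlapped with each other. In N_12 the levels were 27.1 RPKM for KLF4, 26.2 RPKM for KLF5 and 13.0 RPKM for ELF3, so ELF3 stood below both KLF genes in both libraries. Its percentile among tested genes was 76.0 in N_12 and 90.1 in DMSO. GATA6 and CDX2 followed, at 4.76 and 5.18 RPKM in N_12, where their libraries overlapped, and at 4.63 and 3.38 RPKM in DMSO, where they did not. HNF4G had 0.375 RPKM in N_12 and 0.613 RPKM in DMSO, HNF4A 0.337 and 0.217 RPKM, and ATOH1 0.174 and 0.180 RPKM. The libraries of HNF4G and HNF4A overlapped in N_12, as did those of HNF4A and ATOH1 in DMSO. The length used matters for ELF3, whose annotated exons add up to 7191 bases while its coding transcripts average 2747 bases. By transcript length ELF3 had 34.1 RPKM in N_12 and 75.4 RPKM in DMSO, close to SOX9 in DMSO at 83.2 RPKM and to KLF5 in N_12 at 31.3 RPKM, and KLF4 had 61.9 and 70.3 RPKM. The order of ELF3, KLF4 and KLF5 within a group thus depends on the length, whereas the comparison between groups does not. The same holds for HNF4A, with 7311 exon bases and coding transcripts averaging 2457 bases. By transcript length HNF4A had 0.899 and 1.11 RPKM in N_12 and HNF4G 0.712 and 0.504 RPKM, without overlap. In DMSO HNF4A had 0.654 and 0.637 RPKM and HNF4G 0.862 and 1.12 RPKM. GATA6 then stood above CDX2 in N_12, at 6.44 and 5.27 RPKM.

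Markers of the colon epithelium were measured beside the factors. Of 10 colon epithelial markers the general epithelial ones were abundant, led by the keratin KRT8 (1350 and 1524 CPM in N_12, 1959 and 1742 CPM in DMSO). The intestinal ones were near 0. VIL1, the brush border villin, had at most 0.0981 CPM in N_12 and 0.131 CPM in DMSO, and CDH17, LGALS4, KRT20 and GPA33 stayed below 0.3 CPM in every library. Markers of other cell types were close to absent, with PTPRC and CD3E of leukocytes and COL1A2, DCN and LUM of fibroblasts at 0 in all libraries. The exceptions were COL1A1, at 55.1 and 60.0 CPM in N_12 and 64.5 and 60.8 CPM in DMSO, and CD68, at 48.2 and 41.7 CPM in N_12 and 41.2 and 34.7 CPM in DMSO. Neither was called by edgeR, and no other marker of these types exceeded 1.74 CPM.

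The summed level of the 10 epithelial markers was 3329 to 3674 CPM in N_12 and 4061 to 4594 CPM in DMSO, so it moved in the same direction as ELF3. Of the 5 tested, 4 lay below 0 on the log2 scale, 0 were called by edgeR, DESeq2 and limma-voom also called 0, 3 had an unadjusted p under 0.05, and the median log2 fold change was -0.36. Over all 14105 tested genes, 6915 lay below 0, 21.8% had an unadjusted p under 0.05, and the median was 0.01. The part of this shift, or of depth, in the ELF3 result was not tested. In bulk RNA, fewer cells with ELF3 and less ELF3 RNA per cell cannot be told apart.

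Of 48 other regulators of the intestinal epithelium 33 were tested, and 2 of them were called, both lower in N_12. SOX4 (ENSG00000124766), a SOX factor of progenitor and tuft cells, had 47.9 and 41.3 CPM in N_12 and 97.7 and 92.2 CPM in DMSO, with no overlap. It fell 2.13-fold (log2 fold change -1.09, SE 0.15, edgeR adjusted p = 0.0174). HES1 (ENSG00000114315), the Notch target that represses ATOH1, had 29.7 and 22.6 CPM in N_12 and 61.8 and 55.3 CPM in DMSO, again with no overlap. It fell 2.24-fold (-1.16, SE 0.18, adjusted p = 0.0248). Neither held without N_12 replicate 1 (adjusted p = 0.108 for SOX4 and 0.116 for HES1) or without N_12 replicate 2 (0.130 and 0.148), and limma-voom gave HES1 an adjusted p of 0.0510. With 2.25% of all genes called, 2 of 33 is a small count to read against that share. The median of the list was 0.07. ONECUT2 (-0.54) and HOXB13 (0.53), with the next smallest p, were not called by edgeR. DESeq2 called 3 of the 33, ONECUT2 among them (adjusted p = 0.0263), beside 9.83% of all genes it gave an adjusted p.

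HES1 was also the 1 call among 37 tested genes of the Notch pathway, a share near the 2.25% of all tested genes, and the median of the list was 0.02. Its relative HES4 had a log2 fold change of -0.65 (edgeR adjusted p = 0.0901), and NCSTN, a subunit of the gamma-secretase that cuts Notch receptors, had 0.45. The coactivator MAML3 had 0.49. DESeq2 called 3 of the 37, HES4 (adjusted p = 0.0166) and NCSTN (0.0444) among them, beside 9.83% of all genes it gave an adjusted p. ATOH1, which HES1 represses, showed the values given above and could not be resolved at its counts.

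**Figure D3:**
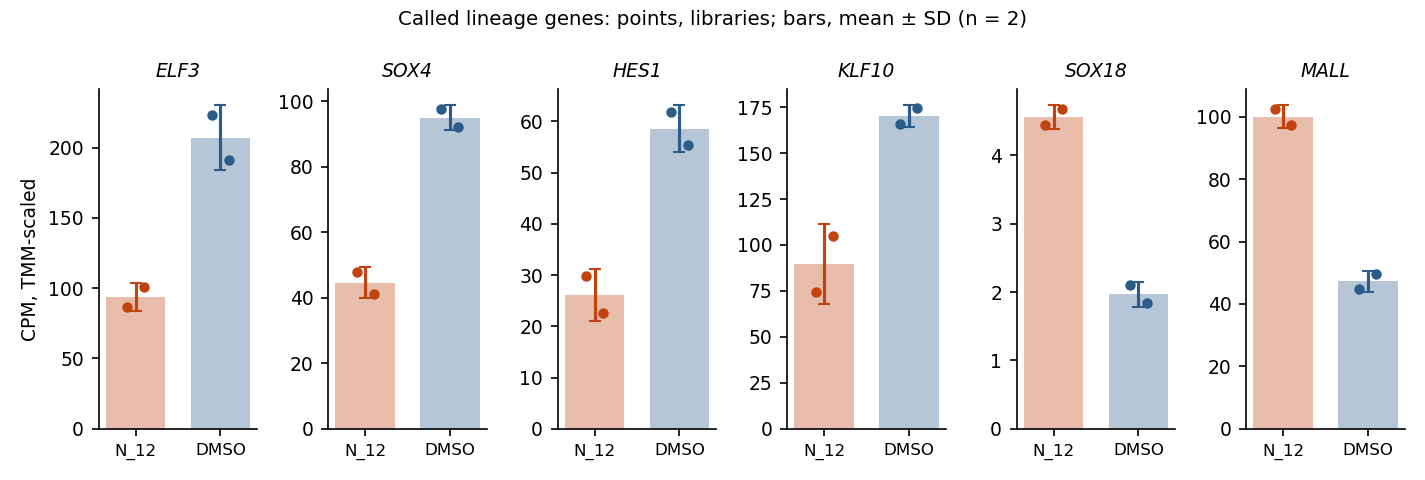
CPM of ELF3 and the 5 other called genes of the lineage and gene family lists in N_12 (left) and DMSO (right), with a separate axis from 0 in each panel, points for libraries and bars for the mean with SD (n = 2 each). ELF3, SOX4, HES1 and KLF10 are lower, and SOX18 and MALL higher, in N_12.

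Within the ETS family, edgeR called 0 of the 20 tested relatives of ELF3, 5 had an unadjusted p under 0.05 (21.8% of all tested genes), DESeq2 called 3 (9.83% of all genes it gave an adjusted p) and limma-voom 0. These shares lay near those of all genes. The median was 0.16. The other factors of the epithelial ETS group were scarce. EHF had 1.12 and 0.785 CPM in N_12 and 0.525 and 0.884 CPM in DMSO, SPDEF, the goblet cell factor, had 0.997 and 1.08 CPM in N_12 and 1.67 and 1.94 CPM in DMSO, and ELF5 had at most 6 counts in N_12 and 4 in DMSO. These 3 were picked for their relation to ELF3. SPDEF had a log2 fold change of -0.80 (edgeR unadjusted p = 0.0341, adjusted p = 0.195), on the same side as ELF3. EHF had 0.43 (edgeR adjusted p = 0.604), on the other side. Of the family members with the smallest p, ELF1 (0.64, 95% interval 0.25 to 1.04, adjusted p = 0.0926) and ELF4 (0.44, 0.11 to 0.76) had higher values in N_12, the opposite side from ELF3, while ETV3 (-0.55) and ETS1 (-0.54) had lower ones. ETV3 is a repressor of the family and ETS1 its founding member.

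Of 13 tested KLF genes other than KLF4 and KLF5, 1 was called, KLF10, beside 2.25% of all tested genes. This gene, induced early by TGF-beta, had 74.4 and 105 CPM in N_12 and 166 and 174 CPM in DMSO. The N_12 libraries were both lower but far apart, and the log2 fold change was -0.92 (SE 0.18, edgeR adjusted p = 0.0485). It was lost without any 1 of the 4 libraries (adjusted p from 0.0561 to 0.144) and with limma-voom (0.0778). KLF14 (0.94) and KLF15 (0.73) averaged higher in N_12 at levels under 6 CPM, and KLF6 (-0.37) lower, without a call. Of the 13, 4 had an unadjusted p under 0.05, against 21.8% of all tested genes. The groups did not overlap for 6, against 54.7%.

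Among 11 tested GATA and SOX genes other than GATA6 and SOX9, SOX4 fell and SOX18 (ENSG00000203883), a factor of endothelial development, rose 2.32-fold from a low base. It had 4.44 and 4.69 CPM in N_12 and 2.10 and 1.84 CPM in DMSO, with no overlap (log2 fold change 1.21, SE 0.23, edgeR adjusted p = 0.0448). The SOX18 call was lost without any 1 library (adjusted p from 0.0894 to 0.176) and with limma-voom (0.0798). Endothelial markers were at 0.997 to 2.53 CPM in sum in N_12 and 1.63 to 1.67 CPM in DMSO. GATA3 had -0.61 and SOX12 0.36, neither called. SOX4 and SOX18 were thus the 2 called of these 11, beside 2.25% of all tested genes. Of the 11, 3 had an unadjusted p under 0.05, against 21.8% of all tested genes. The groups did not overlap for 6, against 54.7%.

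**Figure D4:**
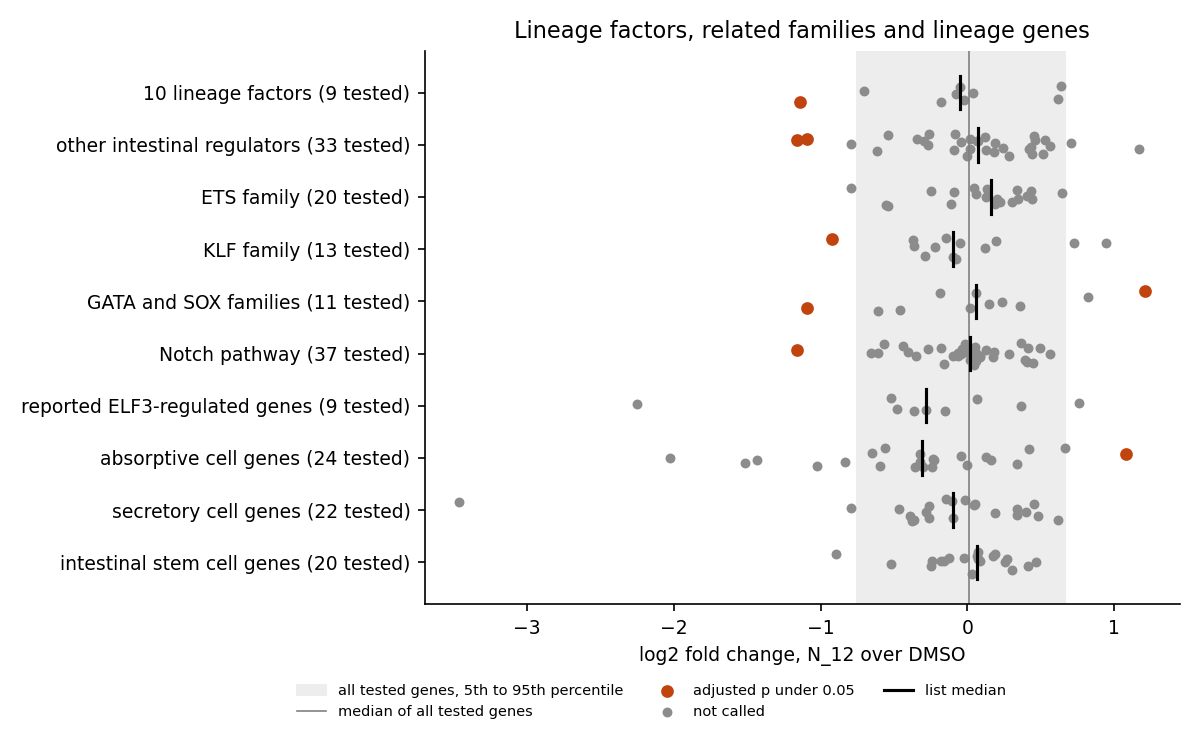
Log2 fold change of N_12 over DMSO for every tested gene of each list (points), list medians (black bars), and the 5th to 95th percentile of all 14105 tested genes (grey band, -0.75 to 0.66). Called genes are coloured, and ELF3, SOX4, HES1, KLF10, SOX18 and MALL are the genes called.

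Genes typical of the differentiated lineages gave 1 call. Of 61 absorptive cell genes, 32 had under 10 counts in every library and 24 were tested, among which MALL (ENSG00000144063), a membrane raft protein gene, rose. MALL had 103 and 97.4 CPM in N_12 and 44.9 and 49.6 CPM in DMSO, without overlap, and a log2 fold change of 1.08 (SE 0.14, edgeR adjusted p = 0.0155). It lost the call without either N_12 library (adjusted p = 0.131 and 0.129). This 1 call among 24 stands beside 2.25% of all tested genes. Of the 24, 8 had an unadjusted p under 0.05, against 21.8% of all tested genes. The groups did not overlap for 17, against 54.7%. Of the 24, 18 lay below 0, against 6915 of all 14105 tested genes, and the median was -0.31. The dipeptidyl peptidase gene DPP4 had -0.83 (edgeR adjusted p = 0.0727), the prostaglandin-degrading enzyme HPGD -1.43 at under 2 CPM, and the carbonic anhydrase CA12 -0.65, all uncalled in the main edgeR fit. DESeq2 called 2 of the 24, DPP4 among them (adjusted p = 0.00856), beside 9.83% of all genes it gave an adjusted p. With a replicate term edgeR called DPP4 (adjusted p = 0.0151) and HPGD (0.0421), in a fit that called 963 genes.

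Of 53 secretory cell genes 22 were tested. EdgeR called 0, as did DESeq2 and limma-voom, and 2 had an unadjusted p under 0.05, against 21.8% of all tested genes. TRPM5, a tuft cell channel, had 0 and 3 counts in N_12 and 14 and 12 counts in DMSO (edgeR adjusted p = 0.104), and the serotonin enzyme TPH1 had a log2 fold change of 0.61. The tuft cell kinase DCLK1 had -0.39. Of 27 intestinal stem cell genes 20 were tested with 0 calls by edgeR, 1 by DESeq2, 0 by limma-voom and 3 at an unadjusted p under 0.05, again against 21.8% of all tested genes. RNF43, a brake on Wnt receptors, had 0.47, the receptor TNFRSF19 -0.89, EPHB3 -0.52 and the RNA-binding protein MEX3A 0.41.

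A list of 16 genes reported elsewhere as regulated by ELF3, mostly in other cell types, had 9 tested members. EdgeR, DESeq2 and limma-voom each called 0, and 4 of the 9 had an unadjusted p under 0.05, against 21.8% of all tested genes. MMP9, a matrix protease gene, had 9 and 8 counts in N_12 and 21 and 38 counts in DMSO (log2 fold change -2.25, edgeR adjusted p = 0.0718). The tight junction gene CLDN7 had 77.5 and 68.8 CPM in N_12 and 111 and 93.1 CPM in DMSO (-0.48, adjusted p = 0.134). ZEB1, a mesenchymal repressor, averaged higher in N_12, at 18.7 and 23.3 CPM in N_12 and 9.64 and 15.2 CPM in DMSO (0.76, edgeR adjusted p = 0.143). Its value moved with the DMSO library left out, at 0.47 without DMSO replicate 1 (edgeR adjusted p = 0.530) and at 1.12 without DMSO replicate 2, where it passed (0.0471), and it did not pass without either N_12 library (0.273 and 0.416). KRT8, the keratin given above among the epithelial markers, is also on this list (-0.36, edgeR adjusted p = 0.181). The groups did not overlap for 6 of the 9, the named genes among them, against 54.7% of all tested genes. The list median was -0.28, beside 0.01 over all tested genes. The list does not separate genes reported as raised by ELF3 from genes reported as lowered. The sign of this median, or of any listed gene, was therefore not set against a reported direction.

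Genes with the pattern most like that of ELF3 were sought among 11235 genes of at least 5 CPM by the distance between log2 CPM values centred on each gene's mean over the 4 libraries. The nearest was DUSP1, an early-response phosphatase of MAP kinases, at a distance of 0.0451 and with 13.2 and 15.0 CPM in N_12 and 35.1 and 30.1 CPM in DMSO. Next came RNF152 (0.0494), an E3 ligase of the lysosome, TXNDC17 (0.0610), RPL31 (0.0645), a protein of the large ribosomal subunit, and HDHD5 (0.0764). Like ELF3, each was higher in N_12 replicate 2 than in N_12 replicate 1 and higher in DMSO replicate 1 than in DMSO replicate 2. All 5 were called lower, with log2 fold changes from -1.21 to -1.09. They were picked for likeness to ELF3 over these same libraries, so the shared order, direction and size follow from the choice. With 4 libraries this likeness is a description and carries no test.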

How the data were processed

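RNA sequencing of 4 HCT116 libraries, 2 given N_12 and 2 given DMSO, was analysed, with groups and replicate numbers from the sample titles. The authors deposited whole-number counts per gene without normalization, keyed by human Ensembl identifiers. Aligner, counting tool and strandedness: not given in the sources used here. Mouse builds (GRCm38, mm10) are listed in the submitters' processing notes and do not match human identifiers, so no coordinates come from the table. Symbols matched 20148 of 20263 identifiers, and exon lengths and overlaps came from GENCODE. Of the secretory list, 52 of 53 genes had a row.

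The fit used edgeR 4.0.16 under R 4.3.3 (TMM scaling, filterByExpr with groups, robust quasi-likelihood fit, no replicate term, two-sided). Called means an adjusted p under 0.05 over all 14105 tested genes. Standard errors were derived from each F statistic. Alternatives were limma-voom (limma 3.58.1), DESeq2 1.42.0, other scalings and filters, a replicate term and leaving out each library.

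The factors and gene lists were chosen with earlier results of these data known. Named genes were the 10 factors, every called gene and otherwise up to 4 genes with the smallest p in each list, the 5 genes most like ELF3, and abundant markers as values. On simulated data with the depths of these N_12 and DMSO libraries and 13935 tested genes, 5, 24, 47 and 48 of 50 genes changed 1.5-, 2-, 4- and 8-fold were called, and 9 of 133 calls were false. Chi-square tests of counts between replicates gave 57.2 for N_12 and 36.5 for DMSO per degree of freedom, above sampling noise, so no library was merged.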

Additional observations from a re-analysis of the deposited data

How the results depend on the processing

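Genes called among all tested genes numbered 317, against 131 with limma-voom, 131 without robust dispersions, 1225 with DESeq2 and 0 to 451 when 1 library was left out. Lineage factors called numbered 1, against 2 with DESeq2 and 0 to 1 when 1 library was left out. Of the other genes on the lineage, pathway and family lists 5 were called, against 2 with limma-voom, 2 without robust dispersions and 13 with DESeq2. Across 12 other settings ELF3 kept its direction in every one and its call in 10, with log2 fold changes from -1.26 to -1.02 over the fits that left out 1 library and adjusted p from 1.21e-08 to 0.131 over all 12. The 2 losses were the fits without 1 N_12 library, and the cause was not tested. Signs turned for 4 uncalled factors. Leaving out 1 library gave KLF5 from -0.25 to 0.0650, GATA6 from -0.14 to 0.18, SOX9 from -0.17 to 0.0883 and ATOH1 from -0.61 to 0.91. With library totals alone SOX9 was at 0.0216, and with limma-voom ATOH1 was at 0.0911. CDX2 and HNF4A stayed above 0, and HNF4G and KLF4 below, in all 12.

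The labels give replicate numbers but do not say that they pair libraries, and same-numbered deviations correlated at -0.12. With the replicate block 963 genes, 1 factor and 12 list genes were called, and ATOH1 was at 0.0429. A crossed replicate block, chosen after seeing the data, called 28 genes, 0 factors and 0 list genes, with ELF3 at -1.14 and ATOH1 at 0.0267. Counts of HNF4A, HNF4G and above all ATOH1 limit what their intervals can show.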
